A study of Mus musculus with 16 samples.

Results

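This account covers 10 genes of inhibitory interneurons (Lamp5, Crhbp, Sst, Npy, Pvalb, Vip, Gad1, Gad2, Slc32a1 and Cort) in long-read RNA sequencing of the mouse brain. They were picked by gene symbol, as genes that mark interneuron classes or serve GABA release, from 23724 genes with at least 1 read. Earlier results of these data were known at that point. Counts of calls among the 10 genes therefore describe the set and do not test it. Iso-seq reads a cDNA copy of an RNA molecule from end to end, so that 1 read shows the joined exons of 1 molecule. Cortex and striatum were taken from 3-month-old male R6/2 mice and their non-transgenic (NT) controls, 4 samples for each pairing of region and genotype, 16 in total. R6/2 mice (B6CBA-Tg(HDexon1)62Gpb/3J) carry a human HTT promoter fragment with exon 1 and an expanded CAG repeat, and model Huntington's disease. The transgene adds an RNA fragment and leaves the mouse Htt gene in place, and NT mice lack it. The samples hold whole pieces of tissue, so fewer cells of a type and less RNA per cell cannot be told apart.

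Cortical interneurons release GABA and fall into classes that are usually named after a peptide or protein that they make. Pvalb cells contact cell bodies and axons of pyramidal neurons, Sst cells contact dendrites, Vip cells mainly contact other interneurons, and Lamp5 cells include the neurogliaform cells of the upper layers. Lamp5 is a membrane protein of the LAMP family that is also made by some cortical excitatory neurons. In the striatum most neurons are GABA-releasing projection neurons, so that Gad1, Gad2 and Slc32a1 are shared by projection neurons and interneurons there, whereas Npy and Sst mark a sparse interneuron class.

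Sequencing depth ran from 252885 to 808814 reads for cortical samples and from 317050 to 1496196 reads for striatal samples. Levels are given as CPM, reads of a gene over the TMM-normalized size of its library, on edgeR's counts-per-million scale. For 4 striatal samples (NT 1, NT 2, R6/2 2 and R6/2 3) the labels note raw data for 2 replicates, and both sets of counts were summed. These 4 samples stood apart from the 4 striatal samples with 1 set for several of the genes, whatever their genotype. Gad1 averaged 752 CPM in the NT samples with 2 sets and 387 CPM in those with 1 set, and Npy went the other way, with 96.9 CPM and 387 CPM. The number of sets was therefore a term in each striatal fit, and it was balanced over the genotypes. The number of sets cannot be told apart from which animals were given 2 sets. The region labels were matched by marker genes: Ppp1r1b, which encodes DARPP-32 of striatal projection neurons, had 3708 CPM in NT striatum and 178.5 CPM in NT cortex, and Slc17a7, the vesicular glutamate transporter of cortical excitatory neurons, had 4.46 CPM and 26.2 CPM. Choroid plexus markers varied between samples, with summed levels from 52.9 to 9179 CPM in NT striatum and from 90.0 to 307 CPM in R6/2 striatum, and from 6.49 to 928 CPM in NT cortex and from 20.1 to 1546 CPM in R6/2 cortex.

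The regulatory sequence before a gene is shown for Vip and Sst, since they are the members whose RefSeq promoter windows (GRCm38.p6, 250 bases before to 50 after the start) hold the cyclic AMP response element or its core, the letters bound by CREB. All 10 genes had a window, 12 windows in all. The motifs searched on both strands were TGACGTCA, the full element, present in 1.79% of 32817 windows, TGACGT, its core, which the full element contains, present in 7.51%, and TATAAA, the TATA box, present in 13.6%. The core stood in 2 member windows, the full element in 1, and the TATA box in 3 (Vip, Crhbp and Gad1). The stretch before Vip lies at chr10:5638968-5639217 on the plus strand, and the capitals mark the core and 3 TATA boxes. The stretch of Sst lies at chr16:23890874-23890903 on the minus strand, 30 bases around the full element, which is in capitals. In Vip the core begins 79 bases before the start and the last TATA box 30 bases before it, and in Sst the element begins 48 bases before the RefSeq start. The GENCODE transcript of Sst starts upstream of that point, and the stretch of Sst shown lies inside that transcript. In both, a match describes the letters only.
Vip: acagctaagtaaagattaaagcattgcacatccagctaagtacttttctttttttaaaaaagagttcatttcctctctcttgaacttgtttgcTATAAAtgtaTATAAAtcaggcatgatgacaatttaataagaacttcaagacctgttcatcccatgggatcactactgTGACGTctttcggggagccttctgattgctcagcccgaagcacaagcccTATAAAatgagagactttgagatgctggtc
Sst: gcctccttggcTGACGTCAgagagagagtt

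The first comparison asked which of the genes differ between R6/2 and NT cortex. In R6/2 cortex Lamp5, Crhbp, Vip, Npy and Gad1 were lower, from 4.32-fold for Lamp5 to 2.05-fold for Gad1. Sst, Pvalb and Gad2 did not pass the test, and Slc32a1 and Cort were below the filter on low counts. Thus 5 of 8 genes tested were called, all lower, where 3.23% of the 6128 genes tested were called and 2.77% were called lower (edgeR quasi-likelihood test, Benjamini-Hochberg adjusted p under 0.05). The median log2 fold change of the 8 genes was -1.10, and that of all genes tested was 0.01. The genes were chosen with earlier results of these data known, so these shares and medians stand side by side as a description.

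Lamp5 (ENSMUSG00000027270, chr2:136052239-136069917 on the plus strand) had 405, 363, 258 and 342 CPM in the 4 NT cortex samples. In R6/2 cortex it had 73.1, 95.5, 77.5 and 69.0 CPM. Every R6/2 sample lay far below every NT sample, and the group means were 342 ± 61.7 and 78.7 ± 11.7 CPM (SD, n = 4 each). The log2 fold change was -2.11 (SE 0.196, adjusted p = 1.7e-06), and leaving out any single cortical sample or changing the processing kept it between -2.22 and -2.03.

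Crhbp (ENSMUSG00000021680, chr13:95431371-95444924 on the minus strand) encodes a secreted protein that binds corticotropin-releasing hormone and urocortin, and in cortex it is found mainly in Sst cells. It had 94.5, 104, 131 and 98.4 CPM in NT cortex and 25.6, 40.6, 26.3 and 32.2 CPM in R6/2 cortex. The groups did not overlap, and each R6/2 sample rested on 14 to 20 reads. The level fell 3.36-fold (log2 fold change -1.75, SE 0.230, adjusted p = 1.2e-04).

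Among the other peptides, Vip (ENSMUSG00000019772, chr10:5639218-5647617, plus strand), which encodes vasoactive intestinal peptide, had 70.2, 80.0, 48.7 and 86.8 CPM in NT cortex and 23.8, 8.13, 38.7 and 20.7 CPM in R6/2 cortex. The groups were apart, although the R6/2 samples varied among themselves, with 4 to 28 reads each. The log2 fold change was -1.60 (SE 0.313, adjusted p = 0.0054). Without reads of incomplete isoforms the adjusted p rose to 0.068 at a log2 fold change of -1.33. Npy (ENSMUSG00000029819, chr6:49822710-49829507, plus strand), the gene of neuropeptide Y, had 275, 171, 180 and 199 CPM in NT cortex and 115, 81.3, 83.0 and 82.7 CPM in R6/2 cortex. These groups did not overlap either, and the log2 fold change was -1.17 (SE 0.204, adjusted p = 0.0020).

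Sst (ENSMUSG00000004366, chr16:23889573-23890958, minus strand), which encodes somatostatin, had 64.8, 25.9, 39.0 and 40.5 CPM in NT cortex and 25.6, 22.3, 12.4 and 29.9 CPM in R6/2 cortex. One R6/2 sample lay above the lowest NT sample. Its log2 fold change was -0.93 (95% confidence interval -1.64 to -0.23), with an adjusted p of 0.16. Sst rested on 8 to 24 reads a sample in NT and 9 to 14 in R6/2 cortex. Cort (ENSMUSG00000028971, chr4:149125034-149126763, minus strand), which encodes the related peptide cortistatin, had 0 to 3 reads in every cortical sample. Over the groups Cort gave 7 reads in NT and 8 in R6/2 cortex, and no difference was detectable at this depth.

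Pvalb (ENSMUSG00000005716, chr15:78191114-78206400, minus strand), the gene of the calcium-binding protein parvalbumin, had 148, 51.9, 63.3 and 42.5 CPM in NT cortex and 42.0, 52.8, 42.9 and 48.3 CPM in R6/2 cortex. NT sample 1 alone set the height of the NT mean, since the other 3 NT samples were within or close to the R6/2 range. The log2 fold change of -0.68 (95% confidence interval -1.35 to -0.01) had an adjusted p of 0.28, and without NT sample 1 the value was -0.11.

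Of the enzymes that make GABA from glutamate, Gad1 passed the test and Gad2 did not, and the difference between these genes was not tested. Gad1 (ENSMUSG00000070880, chr2:70553072-70602014, plus strand), which encodes GAD67, had 159, 246, 161 and 332 CPM in NT cortex and 110, 106, 120 and 108 CPM in R6/2 cortex. The R6/2 samples were close together and below all NT samples. The log2 fold change was -1.03 (SE 0.221, adjusted p = 0.011). Without NT sample 4, which had the highest level, it was -0.77 with an adjusted p of 0.064. Gad2 (ENSMUSG00000026787, chr2:22622205-22693874, plus strand), which encodes the synaptic form GAD65, had 94.5, 108, 141 and 125 CPM in NT cortex and 69.5, 83.3, 63.6 and 108 CPM in R6/2 cortex. Here the groups overlapped, and the log2 fold change was -0.52 (95% confidence interval -0.96 to -0.08, adjusted p = 0.21). Slc32a1 (ENSMUSG00000037771, chr2:158610767-158615748, plus strand), the transporter that loads GABA into vesicles, gave 5 reads in NT and 14 in R6/2 cortex, with an exact 95% interval of 0.675 to 7.04 for the ratio of R6/2 to NT. That interval covers counting error only, and the transporter could not be compared at this depth.

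**Figure D1:**
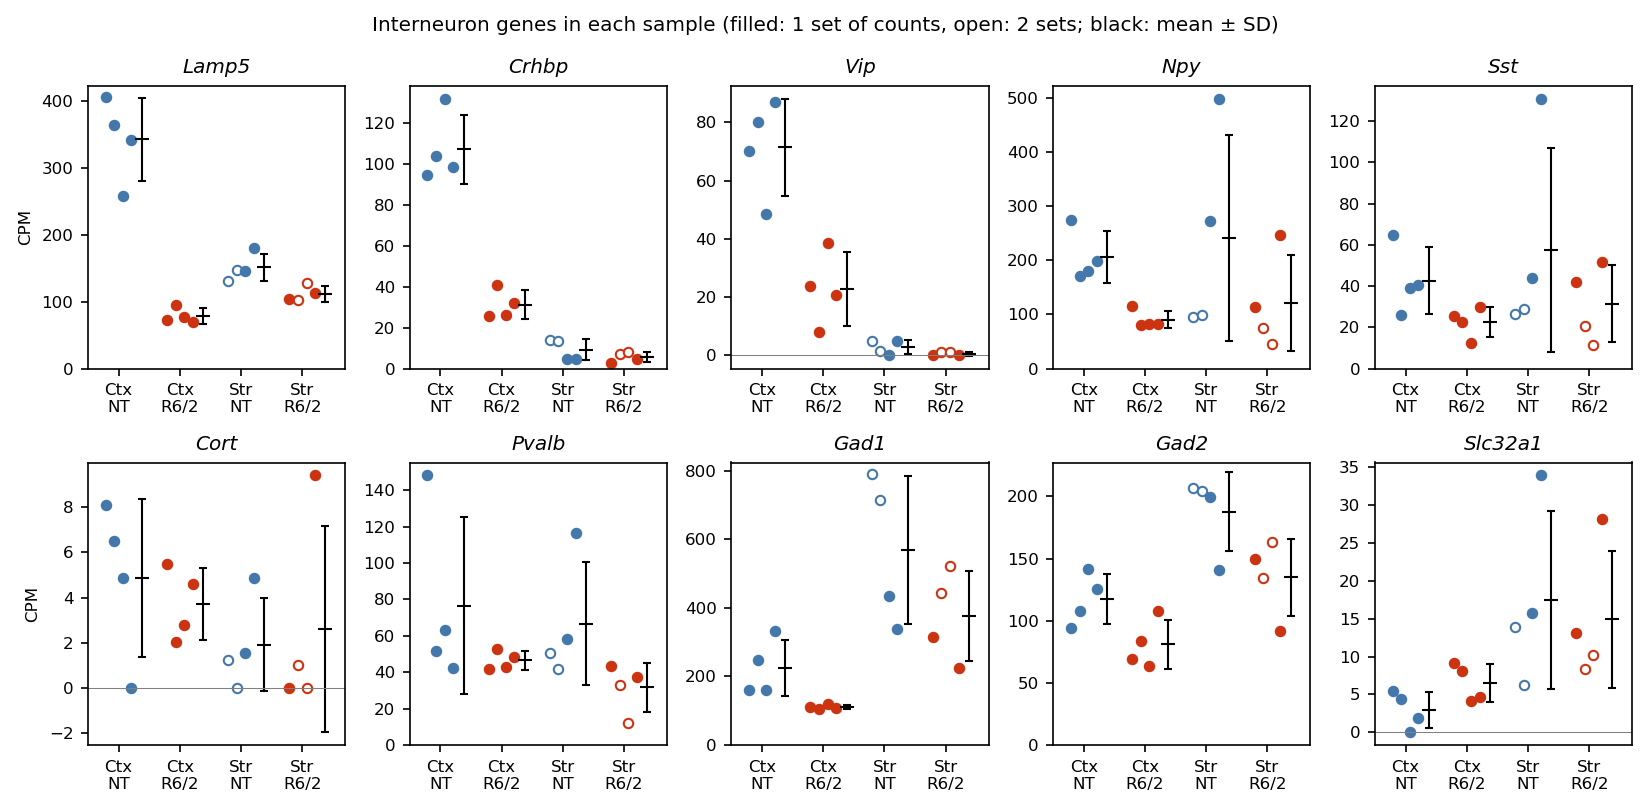
Level of each gene in each of the 16 samples in CPM (linear axes), with cortex (Ctx) and striatum (Str) of NT mice in blue and R6/2 mice in red, filled points for samples with 1 set of counts, open points for 2 sets, and the mean ± SD of 4 samples in black. Lamp5 and Crhbp of NT cortex stand above all other groups, and in the striatum open and filled points separate for Gad1 and Npy.

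In the striatum the same question gave no call. Of the 7 genes tested, 0 passed the threshold, where 4.32% of the 7694 genes tested were called and 3.82% were called lower. All 7 had log2 fold changes below 0 (median -0.60, against -0.0014 over all genes tested). Of the 7, 6 had an unadjusted p under 0.05, as did 1355 of all 7694 genes tested. Other processing choices called 0 to 2 of the genes (DESeq2 called 1), and those called were Gad1, Npy or Pvalb. Crhbp, Vip and Cort were below the filter.

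Gad1 had 790, 714, 436 and 339 CPM in NT striatum and 314, 442, 521 and 225 CPM in R6/2 striatum. The groups overlapped when samples with 1 and 2 sets were mixed, but within each number of sets the R6/2 mean was lower, 482 against 752 CPM with 2 sets and 270 against 387 CPM with 1. The log2 fold change was -0.60 (SE 0.167, adjusted p = 0.064). DESeq2 gave an adjusted p of 0.025, and edgeR without NT sample 4 gave 0.026.

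Npy had 94.4, 99.4, 274 and 499 CPM in NT striatum and 115, 75.6, 45.7 and 247 CPM in R6/2 striatum. With 2 sets the NT and R6/2 means were 96.9 and 60.7 CPM, and with 1 set 387 and 181 CPM, so the spread between numbers of sets was larger than the difference between genotypes. Its log2 fold change was -0.90 (SE 0.267, adjusted p = 0.082). Of 18 alternatives 3 called it, with adjusted p values from 0.0020 to 0.037.

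Pvalb was 50.4, 41.9, 58.2 and 116 CPM in NT striatum and 43.6, 33.2, 12.2 and 37.6 CPM in R6/2 striatum, with a log2 fold change of -0.99 (SE 0.297, adjusted p = 0.085). Only R6/2 sample 1 exceeded the lowest NT sample. Sst was 26.4, 28.7, 44.0 and 131 CPM in NT and 42.1, 20.7, 11.2 and 51.7 CPM in R6/2 striatum (log2 fold change -0.75, 95% confidence interval -1.45 to -0.05, adjusted p = 0.25). As for Npy, the Sst samples with 1 set lay above those with 2 sets in both genotypes.

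Lamp5 had 131, 148, 146 and 179 CPM in NT striatum and 103, 103, 127 and 113 CPM in R6/2 striatum. The groups did not overlap, yet the difference was small, with a log2 fold change of -0.42 (95% confidence interval -0.76 to -0.08, adjusted p = 0.18). Gad2 had 207, 204, 200 and 141 CPM in NT and 150, 135, 164 and 91.6 CPM in R6/2 striatum (log2 fold change -0.50, adjusted p = 0.15). In each genotype sample 4 was the lowest. Slc32a1 was listed with 7 to 12 reads in each striatal sample, and its log2 fold change of -0.08 (95% confidence interval -0.93 to 0.77, adjusted p = 0.97) left a change of either direction possible.

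The sparse genes of the striatum are given here as reads. Crhbp had 11, 17, 3 and 1 reads in NT and 2, 7, 8 and 2 reads in R6/2 striatum, a ratio of R6/2 to NT of 0.567 with an exact 95% counting interval of 0.303 to 1.03. The 2 alternatives that kept Crhbp in the fit gave log2 fold changes of -0.71 in both, with adjusted p values of 0.35 and 0.76. Vip gave 7 reads over all 4 NT samples and 2 over all 4 R6/2 samples, and Cort gave 3 and 5.

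**Figure D2:**
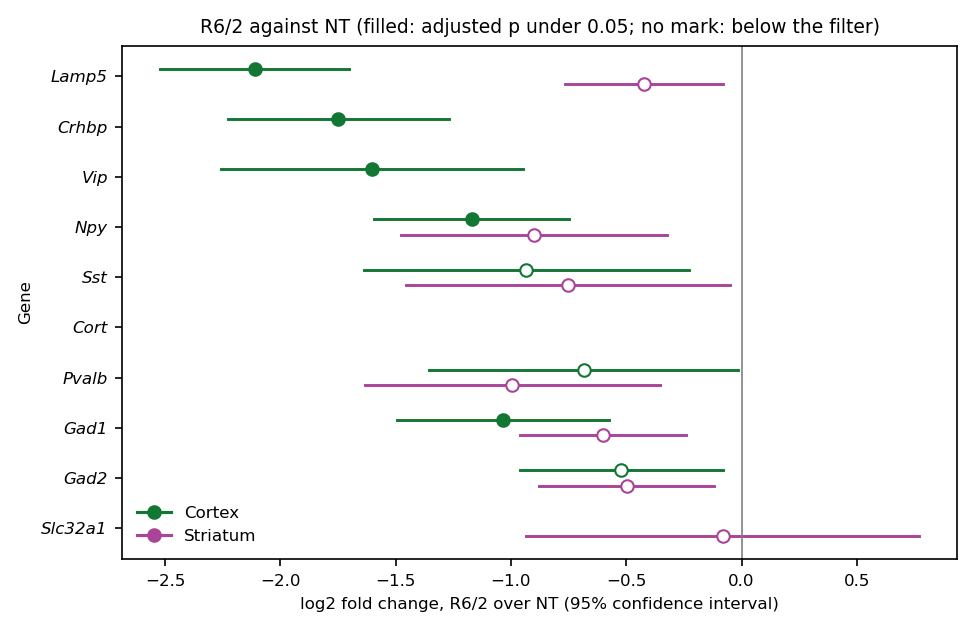
Log2 fold change of R6/2 over NT for each gene that passed the filter, with its 95% confidence interval, in cortex (green) and striatum (purple), where filled points have an adjusted p under 0.05. The 5 filled points are all cortical, Lamp5 has cortical and striatal intervals that do not meet (-2.52 to -1.70 and -0.76 to -0.08), and the intervals of Npy, Sst, Pvalb, Gad1 and Gad2 overlap between regions.

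Whether the genotype difference itself differed between regions was tested as an interaction over all 16 samples, fitted as independent. Lamp5 was the only member called of 8 tested, where 0.0408% of 7360 genes were called. Its R6/2 effect was 1.72 log2 units less negative in the striatum than in the cortex (SE 0.246, adjusted p = 0.0030). The other genes called were Ccm2 (-1.37, adjusted p = 0.034) and Marcksl1 (1.63, adjusted p = 0.034), which are named here after their values were seen. For Crhbp the interaction was 1.06 (95% confidence interval 0.16 to 1.95, adjusted p = 0.85), on few striatal reads. For Gad1, Npy, Sst, Pvalb, Gad2 and Vip it lay between -0.28 and 0.45, with adjusted p values of 0.87 and above, and their intervals reached from -1.26 to 1.34. The Lamp5 interaction remained between 1.56 and 1.81 in 26 alternatives. With only those striatal samples that had 1 set of counts it was 1.56 with an adjusted p of 0.29, in a fit with 2 striatal samples of each genotype.

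Levels were also compared between regions within a genotype, at an equal number of sets. Cortex and striatum samples were fitted as independent, although they probably share animals. In NT mice 6 of 8 genes were called, where 33.5% of genes tested were called, so a difference between regions was common among all genes. Of these 6, Crhbp and Vip passed the filter on low counts through the cortex, where they are high, and were below it in the striatum, so that a gene kept this way had to differ. Their values are given as a description, and the other 4 calls were Lamp5, Gad1, Npy and Gad2. Lamp5 was lower in the striatum, and Gad1, Npy and Gad2 were higher. Lamp5 was 2.28-fold lower (log2 fold change -1.19, SE 0.193, adjusted p = 5.3e-05). The fitted log2 difference of Crhbp was -4.25 (SE 0.358), or -3.31 without the term for the number of sets and -4.09 with no filter but 1 read, and its 161 and 32 reads gave a ratio of 0.106 per normalized read (exact 95% counting interval 0.0700 to 0.155). Vip had 118 reads in NT cortex and 7 in NT striatum, a ratio of 0.0316 per normalized read with an exact 95% counting interval of 0.0124 to 0.0671. Vip cells are known to be rare in the striatum. Gad1 was higher by 0.80 on the log2 scale (SE 0.230, adjusted p = 0.0092), Npy by 0.76 (SE 0.263, adjusted p = 0.028) and Gad2 by 0.58 (SE 0.223, adjusted p = 0.047).

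The call of Npy rested on the term for the number of sets, without which its log2 difference was 0.16 (adjusted p = 0.87). Without reads of incomplete isoforms Gad2 was at 0.08 (adjusted p = 0.86). The call of Gad2 was kept in 13 of 26 alternatives and that of Npy in 20, and those of Lamp5 and Gad1 in all 26. For Slc32a1, the few reads gave 5 in NT cortex and 36 in NT striatum, a ratio of 3.83 (exact 95% counting interval 1.499 to 12.5). It was below the filter in this fit, and the 3 alternatives that kept it gave larger log2 differences of 2.61 to 2.75, with an adjusted p of 4.0e-04 where no filter was applied.

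In R6/2 mice 6 of 8 genes were called between regions as well, where 27.4% of genes tested were called. Crhbp and Vip had again passed the filter only through the cortex. As a description, the log2 difference of Crhbp was -3.19, or -2.30 without the term for sets, on 67 cortical and 19 striatal reads, and Vip had 54 and 2 reads. Gad1 (1.25, adjusted p = 3.2e-04), Npy (1.06, adjusted p = 0.0061), Sst (1.06, adjusted p = 0.045) and Gad2 (0.63, adjusted p = 0.036) were higher in the striatum. Without the term for the number of sets, Npy was at 0.37 (adjusted p = 0.70) and Sst at 0.42 (adjusted p = 0.69). The call of Sst was kept in 14 of 26 alternatives, that of Gad2 in 18 and that of Npy in 24. Pvalb did not pass the test in NT mice (0.08, 95% confidence interval -0.69 to 0.86) or in R6/2 mice (-0.19, 95% confidence interval -0.99 to 0.61). These 2 region comparisons and the interaction share samples, so their values stand side by side and do not support each other.

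Lamp5 was higher in cortex than in striatum in every NT sample and lower in every R6/2 sample. Its means ran from 342 CPM in NT cortex through 151 ± 20.4 in NT striatum and 111 ± 11.4 in R6/2 striatum to 78.7 CPM in R6/2 cortex, and no neighbouring groups in that order overlapped. Of the neighbouring pairs, the regions of NT mice differed by the test, the genotypes in the striatum did not pass it, and the regions of R6/2 mice had an adjusted p of 0.057, under the threshold in 8 of 26 alternatives. Crhbp ran from 107 ± 16.7 CPM in NT cortex and 31.2 ± 6.96 in R6/2 cortex to 9.16 ± 5.06 in NT striatum and 5.74 ± 2.39 in R6/2 striatum, and only the striatal groups overlapped.

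The reads also show which isoforms carried these levels. Known isoforms match an annotated transcript, NIC isoforms join known splice sites in an unannotated way, NNC isoforms use a splice site that is not annotated, and ISM isoforms match only part of an annotated transcript. Reads of the first 3 classes are called complete here. Of Lamp5's complete reads, the 6-exon transcript ENSMUST00000057503 of 1955 nt (chr2:136057927-136069917) made up 93.9% ± 3.11 in NT and 92.1% ± 7.13 in R6/2 cortex (SD, n = 4), and 88.4% ± 4.53 and 89.7% ± 4.22 in the striatum. The 4-exon transcript ENSMUST00000123436 of 1384 nt (chr2:136059431-136069905) held 3.83% ± 2.29 and 4.99% ± 3.93 in cortex and 5.86% ± 1.98 and 5.996% ± 2.27 in striatum. It starts downstream of the long form. A 1-exon ISM form of 893 nt held, with samples pooled, 12.4% of all Lamp5 reads in NT cortex and 13.9% in R6/2 cortex. In NT striatum it held 8.02% and in R6/2 striatum 12.2%. Single samples ranged from 5.66% to 16.9%, 5.36% to 32.5%, 0.526% to 32.4% and 6.06% to 22.9%, in the same order of groups. Of Lamp5's complete reads in the cortex, 419 of 449 in NT and 124 of 137 in R6/2 samples were of the 6-exon form.

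Crhbp was read as the 7-exon transcript ENSMUST00000045583 of 1686 nt, with 95.7% ± 3.11 of complete reads in NT cortex and 91.1% ± 10.3 in R6/2 cortex. The 2-exon Sst transcript, the 4-exon Npy transcript and the 4-exon Pvalb transcript each held over 97% of the pooled complete reads in every group. For Gad1 the 17-exon transcript ENSMUST00000094934 of 3355 nt held 93.9% ± 1.59 in NT and 90.9% ± 5.37 in R6/2 cortex, and 91.7% ± 3.89 and 92.3% ± 0.965 in the striatum. For Gad2 the 16-exon transcript ENSMUST00000028123 of 5744 nt held 96.2% ± 1.27 and 95.3% ± 2.78 in the cortex and 95.8% ± 3.43 and 94.0% ± 3.84 in the striatum. Between genotypes these shares did not move by more than the larger SD of the groups compared, except for Pvalb in the striatum. There the share was 97.0% ± 2.47 in NT and 100% ± 0 in R6/2 samples.

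Among genes with over 50 reads in a cortical group, Vip had the largest NIC and NNC part. Its 7-exon transcript ENSMUST00000019906 of 1530 nt held 46 of 74 complete reads in NT cortex and 30 of 41 in R6/2 cortex. A pair of 7-exon NNC isoforms of 1527 nt held 10 and 7 reads in NT and 4 and 3 in R6/2 cortex, and a 7-exon ISM isoform of 1527 nt held 32 of all 118 Vip reads in NT and 8 of 54 in R6/2 cortex. Slc32a1 was seen mostly as a 1-exon ISM read of 1932 nt, which gave 14 of 14 reads in R6/2 cortex, 1 of 5 in NT cortex, 21 of 36 in NT striatum and 26 of 39 in R6/2 striatum. Its 2-exon transcript ENSMUST00000045738 and a 2-exon NNC isoform of 2086 nt shared most of the complete reads, 7 and 7 of 15 in NT striatum and 11 and 2 of 13 in R6/2 striatum. Cort had 2 to 7 reads of its 2-exon transcript in a group.

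Isoform usage, the division of a gene's complete reads among its isoforms, was tested for genes with at least 2 isoforms of at least 10 reads. None of the members was called by edgeR's diffSpliceDGE. The test was tried on simulated counts in which 1 isoform of a gene was raised 4-fold. It recovered 16.9% of such genes in the cortex, 11.5% in the striatum and 8.47% between regions. No conclusion is drawn from the absence of a call. In the cortex 3 members could be tested (Gad1, Vip and Lamp5, unadjusted p from 0.48 to 0.90), where 0.359% of genes tested were called. In the striatum Gad1 and Lamp5 could be tested, where 0.428% were called, and between regions Gad1, Slc32a1, Vip and Lamp5 could be, where 1.5% were called. With ISM isoforms added, Gad2 was called between regions (adjusted p = 0.010). It was 1 of 8 members tested, where 424 of the 8283 genes tested were called. Its ISM reads included a 6-exon form of 1123 nt, with 6.15% of reads in NT cortex and 7.89% in NT striatum, and a 4-exon form of 978 nt, with 2.79% and 7.20%.

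Incomplete reads made up a share that did not pass the test between genotypes for any of the 6 genes with enough reads. For Lamp5 the ISM share was 16.7% ± 6.19 in NT and 20.9% ± 13.6 in R6/2 cortex (two-sided exact permutation test over samples, p = 0.71, 0.84 after adjustment over 12 tests). The smallest p that 4 against 4 samples allow is 0.029, so 1 difference alone could not pass after the adjustment. No conclusion is drawn from the absence of a pass. Npy had the lowest p of the 12, with 8.19% ± 2.49 in NT and 12.7% ± 4.73 in R6/2 cortex (exact permutation p = 0.14, adjusted 0.84). Sst had 24.7% ± 9.02 and 27.1% ± 6.17 in the cortex and 9.39% ± 8.50 and 5.25% ± 3.88 in the striatum, and nearly all of these were a 1-exon form of 361 nt. An annotated antisense gene, Gad1os, overlaps Gad1, and it had 0 reads in cortex and 11 and 6 in NT and R6/2 striatum, few beside the 1893 and 1252 reads of Gad1.

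**Figure D3:**
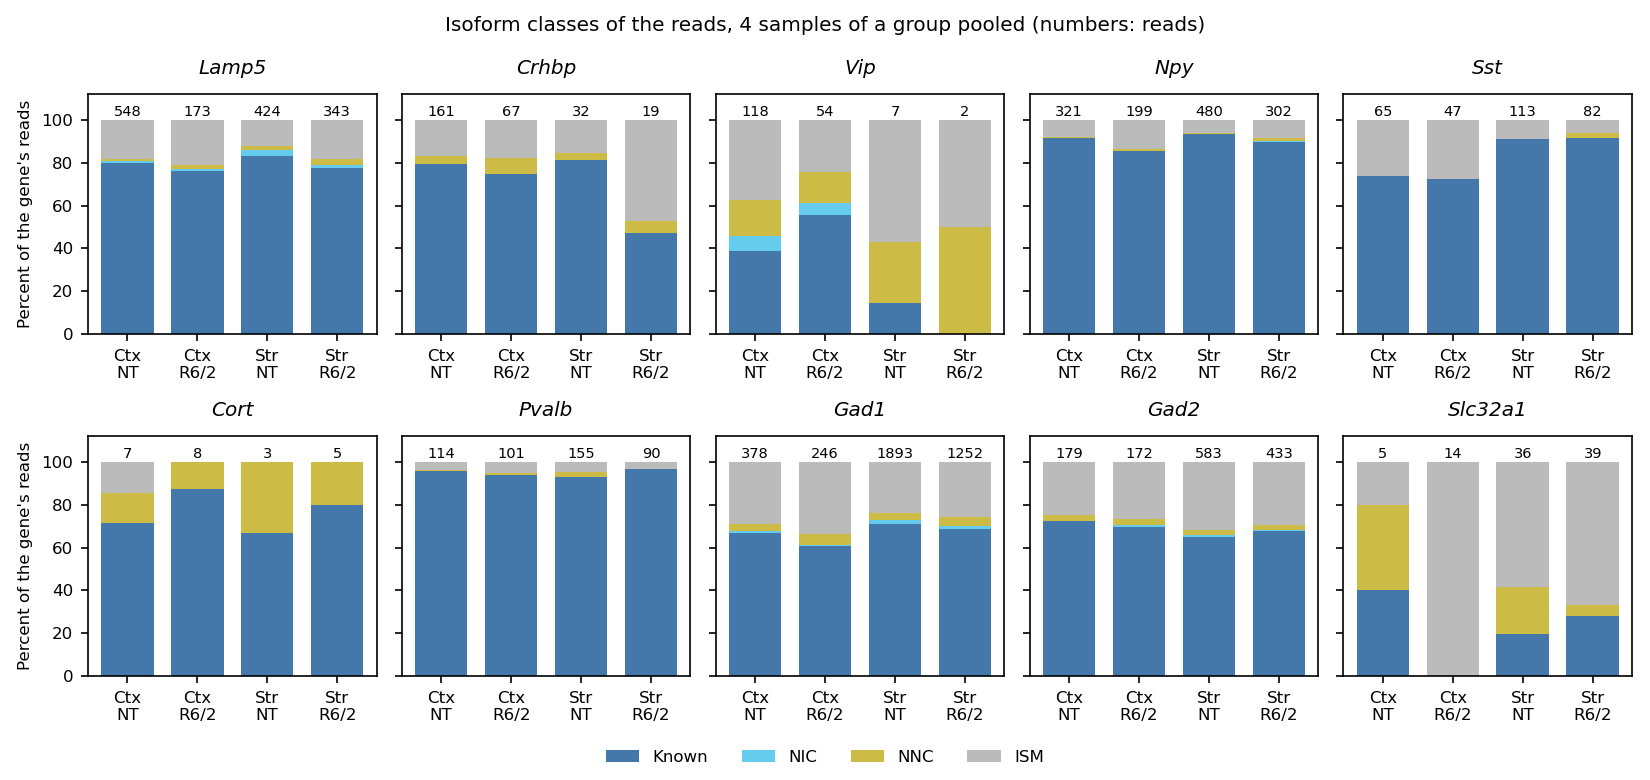
Percent of each gene's reads in known, NIC, NNC and ISM isoforms, with the 4 samples of a group pooled and the number of reads printed above each bar. Known isoforms prevail for Pvalb, Npy, Lamp5 and Crhbp in the cortex, Vip has the largest NIC and NNC part among genes with over 50 reads in a cortical group, and bars over fewer than 40 reads rest on few molecules.

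Genes of the same cells and pathways were followed as lists. Of 29 other cortical interneuron markers, 7 were tested in the cortex and 2 were called, both lower, with a list median log2 fold change of -0.50. They were Kcnc1 (-1.14, adjusted p = 0.0054), a fast potassium channel that Pvalb cells use, and Calb1 (-0.73, adjusted p = 0.044), a calcium-binding protein also made by excitatory neurons. Kcnc2 of the same list was not called (-0.06, adjusted p = 0.95). Which cells the difference in Kcnc1 came from was not tested. Kcnc1 went from 119 ± 22.6 to 53.9 ± 13.8 CPM and Calb1 from 544 ± 115 to 323 ± 27.3 CPM. In the striatum 7 of these markers were tested and 1 was called, Cnr1 (-2.25, adjusted p = 0.010), the cannabinoid receptor, which striatal projection neurons also make.

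Genes of GABA breakdown and transport did not move with Gad1 by the test. Of 9 such genes, 3 could be tested in cortex and 4 in striatum, with 0 calls in either (unadjusted p under 0.05 for 0 of them). Abat, the enzyme that breaks GABA down, had a log2 fold change of -0.30 (adjusted p = 0.46) in the cortex. Of 17 interneuron transcription factors, 1 was tested in the cortex and 3 in the striatum, with no call at either site and 0 and 1 at an unadjusted p under 0.05. Lhx6, which marks Pvalb and Sst cells, had 11 and 9 reads in NT and R6/2 cortex and was too low to test there, and had -0.68 (adjusted p = 0.30) in the striatum. Receptors of the peptides were low: 0 of 13 were tested in the cortex and 1 in the striatum, with no call by edgeR and 0 at an unadjusted p under 0.05.

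Markers of striatal cholinergic, Th and Pthlh interneurons gave 3 calls of 5 tested in the striatum, all lower, and none could be tested in the cortex. Chat, which makes acetylcholine, was lower by 2.15 on the log2 scale (SE 0.271, adjusted p = 6.4e-04), at 45.2 ± 17.6 CPM in NT and 10.2 ± 3.89 CPM in R6/2 striatum. Slc18a3, the vesicular acetylcholine transporter, had -1.54 (adjusted p = 0.044). Isl1 of the same list lay above 0 and was not called (0.34, adjusted p = 0.51).

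Other cell types moved as well, and their part in the results on interneuron genes was not tested. Of 12 striatal projection neuron markers, 9 were called lower in the striatum (list median -1.67), those of smallest adjusted p being Penk (-3.04), Rgs9 (-2.37), Pde10a (-2.18) and Ppp1r1b (-2.16), and the summed level of the list lay between 10363 and 14223 CPM in NT and between 1968 and 3462 CPM in R6/2 samples. In the cortex 3 of them were tested and 2 were called lower, Ppp1r1b (-2.38) and Penk (-2.12), which cortical neurons also make, and the summed level was 404 to 510 CPM in NT and 114 to 158 CPM in R6/2 samples. Cortical excitatory markers gave 0 calls of 4 tested in the cortex (0 at an unadjusted p under 0.05), where Slc17a7 had -0.55 (adjusted p = 0.40), and their summed level lay between 224 and 499 CPM in NT and between 230 and 354 CPM in R6/2 cortex. In the striatum 1 of 2 was called, Nrgn (-1.22). None of the defining markers of this list was at 0 in the cortex.

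Astrocyte markers gave no call in the striatum (2 of 6 at an unadjusted p under 0.05) or in the cortex by edgeR, although in the cortex 5 of 6 had an unadjusted p under 0.05 and all 6 lay below 0 (median -0.60). Their summed level was 831 to 1171 CPM in NT and 601 to 719 CPM in R6/2 cortex. Oligodendrocyte markers gave 0 calls of 6 in the cortex (3 at an unadjusted p under 0.05, median -0.42) and 1 of 6 in the striatum, Mobp (-0.77, adjusted p = 0.025). Microglia markers gave no call in either region (0 at an unadjusted p under 0.05). The choroid plexus list had 1 gene tested in each region and no call (0 at an unadjusted p under 0.05).

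**Figure D4:**
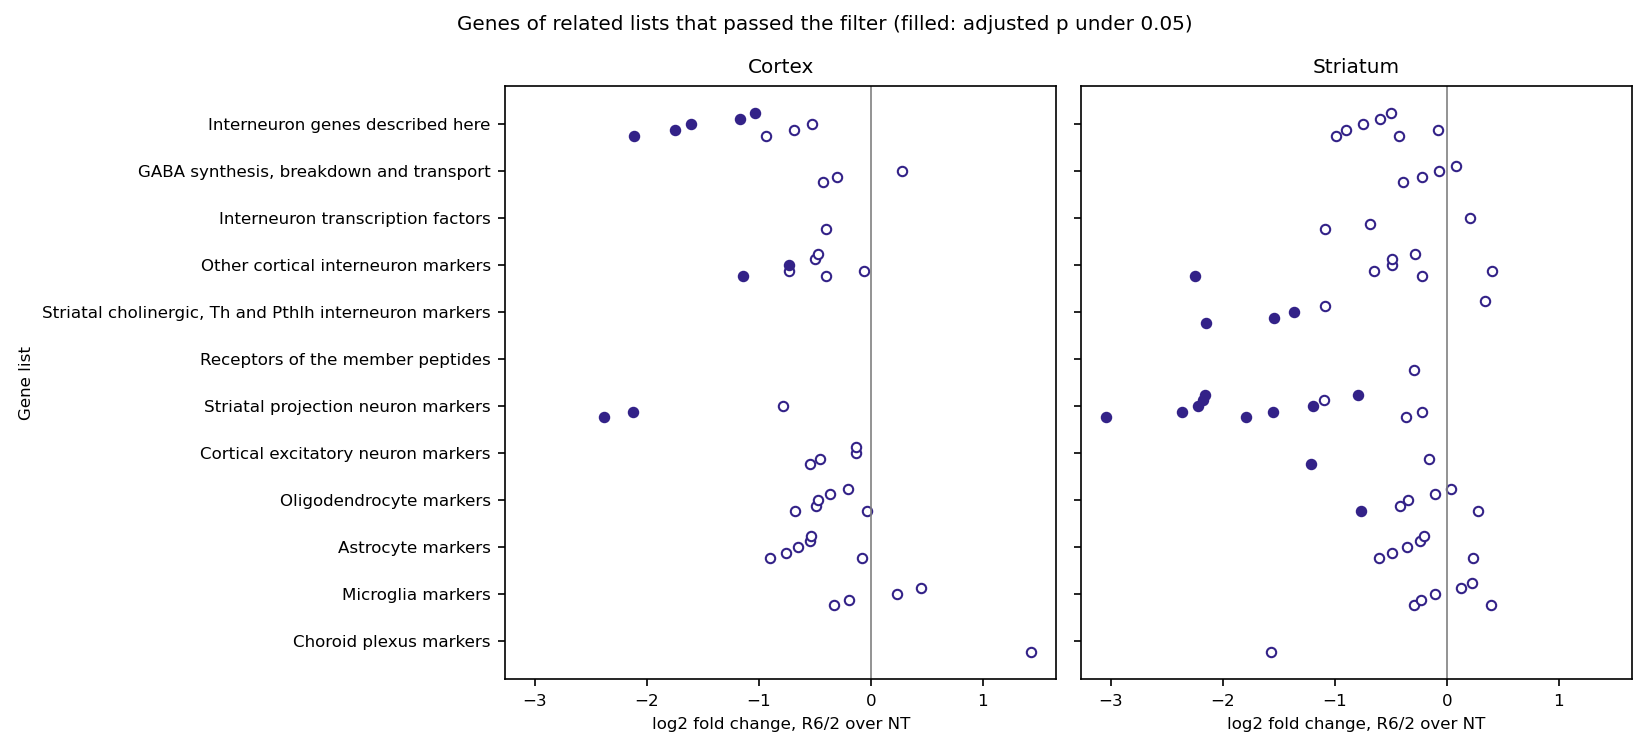
Log2 fold change of R6/2 over NT for every gene of each list that passed the filter, in cortex (left) and striatum (right), with 1 point per gene and filled points for an adjusted p under 0.05. In the cortex 5 of the interneuron genes and 2 each of the other interneuron markers and striatal projection neuron markers are filled, and in the striatum the filled points are mainly projection neuron markers (9) and cholinergic interneuron markers (3).

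Last, genes whose levels followed Lamp5 and Crhbp most closely were listed, by Pearson's r of log2 CPM over the 8 samples of a region. These samples share the genotype difference, so that genes that change with genotype rank high, and the values describe the samples only. In the cortex the 5 genes nearest to Lamp5 among 3821 were Kalrn (r = 0.984), Crip2 (0.981), Dbp (0.980), Itpr1 (0.978) and Ckmt1 (0.977), all called lower in R6/2 cortex. Those nearest to Crhbp were Zfp365 (0.977), Kcna1 (0.976), Nefm (0.969), Gabrd (0.969) and Matk (0.960), of which Matk alone was not called. Lamp5 and Crhbp had r = 0.945 with each other in the cortex.

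In the striatum genes near to Lamp5 among 5403 included Dlgap3 (0.973), Ppp1r9b (0.962), Sipa1l1 (0.955) and Gadd45g (0.953). Striatal Crhbp rested on 1 to 17 reads a sample, too few for such a ranking, and none is given for it.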

How the data were processed

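Iso-seq libraries of poly(A) RNA were measured in 16 samples. The authors made consensus reads, required primers at both ends and a poly(A) stretch, aligned to mm10 by minimap2 (2.17-r941), corrected the reads with TranscriptClean and assigned them by TALON to Ensembl annotations. The authors deposited unfiltered counts, whole reads per isoform for 815498 isoforms, with no normalization. cDNA was amplified by PCR and the reads carry no molecular identifiers, so exact intervals cover counting error only. The labels name separate samples and do not say which of them share an animal. The paper drew these males from the mice of its short-read data and took both regions from the same hemisphere. Cortex and striatum samples of a genotype therefore probably share animals, which the main fits over all 16 samples do not model. The p-values measure the spread between these samples.

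Here, gene counts were sums of known, ISM, NIC and NNC isoforms, with genomic, antisense and intergenic classes left out. edgeR 4.0.16 (R 4.3.3) was used with TMM, filterByExpr, the quasi-likelihood test and Benjamini-Hochberg adjustment over all genes tested, at a threshold of 0.05. The cortex was fitted on its 8 samples, the striatum on its 8 with the number of sets of counts, and regions and the interaction on all 16. The paper states no such gene-level test for these reads. Usage was tested with diffSpliceDGE (at least 10 reads of an isoform, Simes p). CPM use 1 TMM scale over 16 samples. Ratios within a number of sets add 1 CPM. Tried in turn as alternatives were DESeq2 1.42.0, scaling by the upper quartile, other filters, other isoform classes, the first set of counts, striatal samples with 1 set, no term for sets, 1 fit of all samples, a replicate block and leaving out each sample. Scripts were tested on simulated data with 200 changed genes. Positions come from GENCODE M21 (GRCm38), promoters from RefSeq. Python 3.11.15, pandas 2.3.3, scipy 1.17.1 and matplotlib 3.10.9 were also used.

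The members, lists and tests were chosen with earlier results of these data known. Named are all members, of each list at most 4 called genes of smallest adjusted p per region, the 5 genes most like Lamp5 and Crhbp among those with at least 20 reads on average (left out for striatal Crhbp, which has too few reads), and isoforms with at least 5% of complete reads in a region. Genes given beside a list for their role, and the other interaction calls, were added after their values were seen. Some genes that this rule covers are not reported here.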

Additional observations from a re-analysis of the deposited data

Results flagged for a closer look

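In 4 of 40 groups of 4 samples a sample stood apart by Dixon's criterion, where chance gives about 1 group in 20. Sst reached 130.9 CPM in NT striatum sample 4, from 27 reads, and Npy 115.1 CPM in R6/2 cortex sample 1. Gad2 was lowest in NT striatum sample 4, at 140.6 CPM, the striatal library with the fewest reads. Cort was highest in R6/2 striatum sample 4, at 9.39 CPM from 4 reads. The difference between regions in the R6/2 effect was singled out for Lamp5, at 1.72 on the log2 scale with an adjusted p of 0.0030 for the interaction.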

How the results depend on the processing

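Of 875 values of single genes under other settings, 779 kept their direction and side of the threshold, 44 lost and 20 gained a call, and 32 turned direction. The number of members called in R6/2 striatum was 0 and became 1 with DESeq2, 2 without a filter, 1 with the replicate block and 1 with all 16 samples in 1 fit, and 0 to 1 when a sample was left out. Over all genes, DESeq2 called 307 of 7395 tested, no filter 637 of 21677, the block 182 of 7694 and the single fit 409 of 7360. With the replicate block, 5 members were called in the cortex as before, where 206 of 6128 genes were called. Between regions the block called 4 rather than 6 members in either genotype, where it called 1986 (NT) and 1526 (R6/2) of 7360 genes. These 4 include Crhbp and Vip, which passed the filter only through the cortex. Same-numbered samples of 2 groups had correlated deviations of -0.11 to 0.32, the highest for R6/2 cortex and striatum samples 2 (0.23) and 3 (0.32). NT and R6/2 cortex samples 1 (0.15) and 4 (0.12), which differ in genotype and cannot share an animal, came next. Every comparison also held pairs below 0.1, and the numbers were not taken as pairs. Under the block, Npy and Gad2 lost their call between regions in NT mice (adjusted p = 0.062 and 0.36), as Sst and Gad2 did in R6/2 mice (0.080 and 0.28). The interaction gave 0 members with only striatal samples of 1 set, and usage between regions gave 1 with ISM isoforms added. The causes were not tested.

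Values that turned direction had no call in the main results. Slc32a1 in the striatum was 0.020 with the genomic class added and -0.31 to 0.15 with a sample left out. Pvalb between regions was -0.32 in NT mice without the term for sets and 0.046 in R6/2 mice with the block, and -0.18 to 0.87 and -0.35 to 0.018 with a sample left out, where leaving out NT cortex sample 1 gave the 0.87 and a call (adjusted p = 0.044). The interaction of Vip was -0.012 with DESeq2, -1.14 with the first set of counts, -0.0062 without the term for sets, -0.87 with samples of 1 set and -0.54 to 0.66 with a sample left out. The interaction of Gad2 was -0.0022 with the genomic class and -0.082 to 0.20 with a sample left out, and that of Sst was -0.17 to 0.53.

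Over all genes, striatal calls numbered 332 and became 39 without the term for sets, 637 without a filter, 182 with the replicate block, 183 with the first set and 145 to 392 with a sample left out. Cortical calls numbered 198 and became 95 without ISM isoforms and 93 to 289 with a sample left out. The cortical call of Gad1 was lost without NT cortex 4 (adjusted p = 0.064). The interaction was called for 3 genes, 0 with samples of 1 set, 9 without a filter, 7 with DESeq2, 1 with the replicate block and 1 without the term for sets. Between regions, 2468 calls in NT and 2019 in R6/2 mice became 1103 and 840 without the term for sets. Of the NT calls, 1163 were higher and 1305 lower in striatum, against 1295 and 1010 with DESeq2 and 1414 and 709 without NT cortex sample 4, where the median of all genes moved from -0.12 to 0.12. Calls of Npy between regions in NT mice were lost without NT striatum sample 4 (adjusted p = 0.27) or NT cortex sample 2 (0.085) or 3 (0.062), and that of Npy in R6/2 mice without R6/2 striatum sample 4 (0.093). Leaving out 1 sample, the call of Gad2 was lost in NT mice without NT striatum 1 or 3, R6/2 striatum 1 or 2, NT cortex 2 or R6/2 cortex 1, 2 or 3 (adjusted p up to 0.19), and in R6/2 mice without R6/2 striatum 1 or 3 or R6/2 cortex 1, 2 or 3 (up to 0.26). That of Sst in R6/2 mice was lost without NT striatum 1 or 4, R6/2 striatum 1, 2 or 4, NT cortex 3 or R6/2 cortex 1, 2 or 3 (up to 0.15), and a call was gained by Sst in NT mice without NT striatum 3 or NT cortex 1, and by Lamp5 in R6/2 mice without NT striatum 3, NT cortex 1, 3 or 4 or R6/2 cortex 2 (down to 0.0066). Few reads limit Cort, Slc32a1 and striatal Crhbp and Vip.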
